A study of Mus musculus with 23 samples.

Results

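The genes described here mark the connective tissue around the brain and the walls of its vessels. The set holds 8 genes, Twist1, Pdgfrb, Lum, Dcn, Ogn, Cspg4, Rgs5 and Postn, of 16593 genes named on the array, and they were taken as a list by array annotation symbol. They were chosen from earlier results of the same arrays, in which connective tissue and pericyte genes lay higher as a list in E12.5 homozygotes than in wild types. Their E12.5 genotype differences, which rest on the same arrays, are therefore given as a description. The 8 genes are covered by 11 of the 25697 probes, with 3 probes for Ogn, 2 for Dcn and 1 for each other gene.

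The study measured total RNA on 23 Illumina bead arrays from mice of the C57BL/6J background with a change at Meis1, a homeodomain transcription factor gene. The 16 embryonic arrays came from E12.5 forebrain of 5 homozygotes (3 male, 2 female), 6 heterozygotes (3 male, 3 female) and 5 wild types (3 male, 2 female). The 7 adult arrays came from whole brain of male mice of 23 weeks, 4 heterozygotes and 3 wild types. The labels name the genotypes only as homozygote, heterozygote and wild type, and neither the kind of allele nor the cells in which it acts is given in the sources used here. The labels give each embryo a number, whose first part is read here as its litter. The labels do not say that it is one, and each litter result rests on this reading. The 4 litters so read are 509 (3 embryos), 542 (5), 549 (4, none of them wild type) and 551 (4). Values are log2 signals after background correction and quantile normalization within each stage, and a probe counted as detected on an array when its detection p was below 0.05. A difference is called at a limma p below 0.05 after Benjamini-Hochberg adjustment over all probes kept.

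Meis1 itself followed the labels. Its mean was 8.80 ± 0.23 in homozygotes (SD, n = 5), 9.62 ± 0.14 in heterozygotes (n = 6) and 9.98 ± 0.17 in wild types (n = 5) at E12.5, and 7.56 ± 0.34 in adult heterozygotes (n = 4) and 8.17 ± 0.32 in adult wild types (n = 3). Forebrain markers were present at E12.5, with the interneuron progenitor genes Dlx1 and Dlx2 and the cortical gene Tbr1 detected on 16 of 16 arrays. The only Emx2, Gsx2 and Pax6 probes were detected on 0 of 16. Between 52.3% and 54.8% of all probes were detected on the E12.5 arrays and between 53.1% and 55.1% on the adult arrays, and the number of arrays limits the precision of what follows. The tissue is mixed, so fewer cells of a type and less RNA per cell cannot be told apart in any value below.

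The meninges are connective tissue sheets around the brain, formed at the forebrain mostly by neural crest mesenchyme, and their fibroblasts secrete collagens and the proteoglycans that bind them. Pericytes are the mural cells of capillaries; endothelial cells secrete PDGF-B, which recruits them through the receptor encoded by Pdgfrb. Twist1 encodes a basic helix-loop-helix transcription factor of cranial mesenchyme that binds the E-box CANNTG as a dimer. Cspg4 encodes NG2, a membrane proteoglycan of pericytes and oligodendrocyte precursors, and Rgs5 a GTPase-activating protein for G-protein alpha subunits that marks pericytes. Lum, Dcn and Ogn encode lumican, decorin and osteoglycin, small leucine-rich proteoglycans that bind collagen fibrils or their partners, and Postn encodes periostin, a secreted matricellular protein of fibroblasts.

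RefSeq start windows were at hand for 5 of the 8 genes (Twist1, Ogn, Cspg4, Rgs5 and Postn). The 250 bases upstream of the start are shown for 3 of them: Twist1, because its product binds E-boxes and its level differed most between stages among these 3, Ogn, whose window is the one of the 5 genes with E-boxes, and Rgs5, the member that was higher in the adult. Coordinates and sequence are those of GRCm38.p6, 5′ to 3′ on the gene's strand: Twist1 at chr12:33957421-33957670, + strand, Ogn at chr13:49607765-49608014, + strand and Rgs5 at chr1:169655251-169655500, + strand. Capitals mark matches to the E-box CANNTG.
Twist1: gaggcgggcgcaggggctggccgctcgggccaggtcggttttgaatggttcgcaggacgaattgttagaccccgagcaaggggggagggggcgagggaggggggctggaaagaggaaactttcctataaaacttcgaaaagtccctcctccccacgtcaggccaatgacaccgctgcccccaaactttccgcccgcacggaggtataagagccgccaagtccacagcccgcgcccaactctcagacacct
Ogn: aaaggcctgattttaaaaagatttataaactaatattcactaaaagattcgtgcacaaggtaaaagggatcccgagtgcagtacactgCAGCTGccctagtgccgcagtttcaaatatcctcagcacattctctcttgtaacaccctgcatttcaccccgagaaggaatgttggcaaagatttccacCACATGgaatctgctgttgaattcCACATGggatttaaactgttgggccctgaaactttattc
Rgs5: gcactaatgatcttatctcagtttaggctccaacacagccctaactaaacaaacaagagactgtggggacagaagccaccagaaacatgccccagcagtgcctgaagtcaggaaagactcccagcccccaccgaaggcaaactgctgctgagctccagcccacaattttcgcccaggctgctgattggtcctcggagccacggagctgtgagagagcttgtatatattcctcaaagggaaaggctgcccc

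The Ogn window holds 3 E-boxes, beginning 162, 63 and 39 bases upstream of the start, and the windows of Twist1, Cspg4, Rgs5 and Postn hold none. CANNTG, which reads on both strands, occurs in 66.2% of all 32851 windows of the same length. The sequence TGACAG, the core bound by Meis proteins, was searched on both strands and occurs in 0 of the member windows, against 15.9% of all windows. These are matches of letters and not sites of binding.

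Of the 8 genes, 7 gave a signal above background in at least 1 stage, and Postn did not. The Postn probe (ILMN_1216882) was detected on 0 of 16 E12.5 arrays and 0 of 7 adult arrays, and Ogn probes ILMN_2740622 and ILMN_2859619 likewise. Twist1, Pdgfrb, Lum, both Dcn probes, the remaining Ogn probe (ILMN_2859613) and Cspg4 were detected on 16 of 16 E12.5 arrays, and Rgs5 on 7 of 16. In adults these probes were detected on 7 of 7 arrays, apart from Twist1 on 3 of 7. Rgs5 on all 7 adult arrays and on fewer than its 16 embryonic arrays is the one member whose detection was broader in the adult. The filter on dim probes kept 8 probes of 7 genes in each stage, and Postn and the other two Ogn probes were not tested.

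The first comparison asks what the members do in E12.5 forebrain with the number of changed Meis1 alleles. Twist1, Ogn, Pdgfrb and Lum had higher fitted means in homozygotes than in wild types, by 0.58 ± 0.22, 0.57 ± 0.26, 0.33 ± 0.14 and 0.30 ± 0.13 on the log2 scale (SE, 5 against 5, with sex and litter in the fit). Both Dcn probes, Rgs5 and Cspg4 differed by -0.04 ± 0.11 and 0.03 ± 0.14, 0.01 ± 0.22 and -0.24 ± 0.19. Of the 8 member probes 0 were called in homozygotes against wild types, where 0.0488% of the 14340 probes kept were called, and nothing is read from that count since the genes were chosen on this contrast. Every member's homozygote and wild type arrays overlapped.

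Twist1, the mesenchymal transcription factor gene, read 9.48, 9.61, 9.11, 9.27 and 10.05 in homozygotes, 9.10 to 9.68 with a median of 9.46 in heterozygotes, and 9.89, 9.45, 8.41, 8.83 and 8.82 in wild types. The highest array was a homozygote and the 3 lowest were wild types, yet 1 wild type lay above 4 of the 5 homozygotes. Within the litters that held both genotypes, the homozygote minus the wild type mean came to 0.70 in litter 509, 0.91 in litter 542 and 0.24 in litter 551. These litters held 1 homozygote each, against 1, 2 and 2 wild types, and sex was not taken out. In litters 509 and 542 the homozygote lay above every wild type. In litter 551 the homozygote, a male, read 9.61, against 9.89 in the wild type male and 8.83 in the wild type female. In heterozygotes against wild types Twist1 differed by 0.46 ± 0.21 (SE, 6 against 5; adjusted p = 0.999 by limma). Without the litter term the homozygote value was 0.42.

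Pdgfrb, the receptor through which PDGF-B recruits pericytes, read 6.84, 7.22, 6.29, 6.99 and 6.91 in homozygotes, 6.04 to 7.07 with a median of 6.65 in heterozygotes, and 7.18, 6.78, 5.81, 6.55 and 6.26 in wild types. The lowest array of each genotype came from litter 509. Within litters 509, 542 and 551 the 1 homozygote lay 0.47, 0.39 and 0.35 above the wild type mean, with sex not taken out. In litter 551 this homozygote, a male, read 7.22, against 7.18 in the wild type male and 6.55 in the wild type female. The fitted difference of Pdgfrb, 0.33, was 0.13 without background correction. Heterozygotes differed from wild types by 0.14 ± 0.13.

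The 3 proteoglycan genes did not share a shift. Lum and Ogn had higher fitted means in homozygotes than in wild types, while Dcn showed no clear difference on either probe. Lum read 11.26, 11.95, 11.54, 11.53 and 11.62 in homozygotes, 11.06 to 11.54 with a median of 11.37 in heterozygotes, and 12.04, 11.16, 11.12, 11.67 and 11.23 in wild types. The wild types spread most, and the 2 highest of them were littermates in litter 551. There the homozygote minus the wild type mean came to 0.10, against 0.42 in litters 509 and 542, each with 1 homozygote. Without the litter term the fitted homozygote difference of Lum was 0.14. Ogn (ILMN_2859613) read 9.54, 9.19, 9.41, 8.96 and 9.14 in homozygotes, 8.28 to 9.68 with a median of 8.94 in heterozygotes, and 9.34, 8.85, 8.23, 9.18 and 8.20 in wild types. Its within-litter differences ran from 1.18 in litter 509 to -0.07 in litter 551. Decorin differed by less than its standard error in homozygotes against wild types on both probes, and in heterozygotes against wild types it differed by -0.25 ± 0.11 on ILMN_2596346 and -0.03 ± 0.13 on ILMN_2747959.

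The other pericyte genes showed no common shift either. Cspg4 read 6.34, 6.35, 6.44, 6.18 and 6.80 in homozygotes, 6.17 to 7.42 with a median of 6.60 in heterozygotes, and 6.59, 6.62, 6.37, 6.52 and 6.94 in wild types. Its highest array was a heterozygote of litter 549, and homozygotes minus heterozygotes came to -0.89 in that litter, against 0.28, 0.20 and -0.04 in litters 509, 542 and 551. Rgs5 was detected in 3 of 5 homozygotes, 2 of 6 heterozygotes and 2 of 5 wild types, between 4.47 and 6.30 over all embryos.

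**Figure D1:**
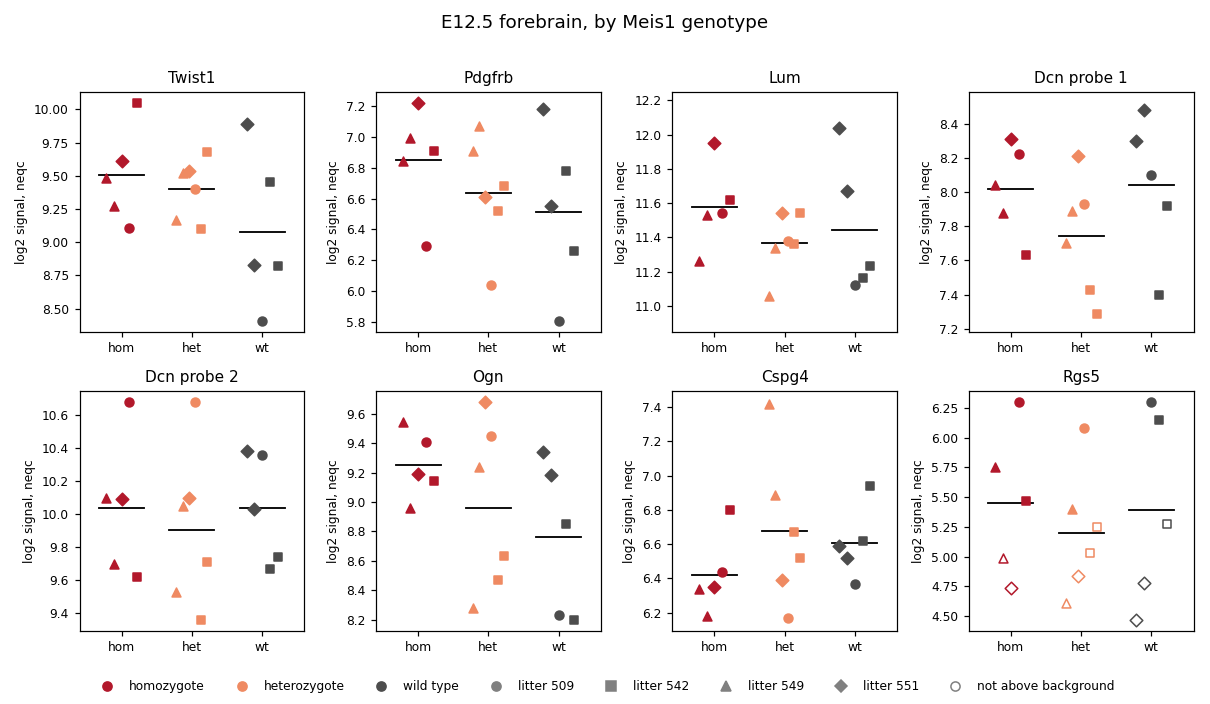
Log2 signal of the 8 member probes kept at E12.5, 1 panel a probe (Dcn probe 1 is ILMN_2596346 and probe 2 ILMN_2747959), for homozygotes, heterozygotes and wild types; each point is an embryo, its shape gives the litter, an open point was not above background and the bar is the group mean. All genotypes overlap in each panel, and the Twist1 wild types reach from 8.41 to 9.89.

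Heterozygotes against wild types gave 0 called members, with 0% of all probes called, and homozygotes against heterozygotes gave 0, with 0.0697% called. The fitted homozygote minus heterozygote differences of the 8 probes lay between -0.24 ± 0.17 (Cspg4) and 0.25 (Ogn ± 0.23, Rgs5 ± 0.19), and that of Cspg4 turned to 0.19 without litter 549. With males alone that of Ogn was 0.76, and that of Rgs5 reached 0.90 in the deposited processed table. At an unadjusted limma p below 0.05, 2 of the 8 probes passed in heterozygotes against wild types (Twist1 and Dcn ILMN_2596346) and 1 in homozygotes against heterozygotes (Dcn ILMN_2596346), while 3.32% and 8.33% of all probes did. The 3 genotype comparisons share arrays with each other, so the choice of the genes on homozygotes against wild types also enters the other 2. These counts are therefore a description too. Between males and females 0 members were called, with 0.0697% of all probes called. Pdgfrb alone passed at an unadjusted limma p below 0.05 (4.46% of all probes did) and gave the largest sex difference, 0.24 ± 0.11 higher in males.

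The members' gene families were measured beside them, and in homozygotes against wild types none of their genes was called. These lists were chosen with earlier results of the same arrays known. Their counts and medians are therefore a description and not separate support. Of the meningeal and mesenchymal factors, 18 of 23 measured genes were positive with a median log2 change of 0.19, from the neural crest factor gene Tfap2b at 0.63 ± 0.32 to the GABA transporter gene Slc6a13 at -0.28 ± 0.16; over all probes 50.6% were positive and the median was 0. The matricellular genes had a median of 0.41, with 8 of 8 positive and the thrombospondin gene Thbs1 the highest at 0.85 ± 0.20. The collagen genes had a median of 0.26 with 5 of 7 positive, Col1a1 at 0.69 ± 0.22 and Col5a2 at -0.37 ± 0.14. Of the mural cell genes 8 of 13 were positive with a median of 0.11, from Notch3, a receptor gene of mural cells, at 0.39 ± 0.14 to the potassium channel subunit gene Abcc9 at -0.23 ± 0.12. Of the TGF-beta ligands and receptors 7 of 7 were positive with a median of 0.16, the highest being the endothelial co-receptor gene Eng at 0.25 ± 0.11. Among the other small leucine-rich proteoglycan genes 3 of 13 were measurable, and Fmod stood at 0.58 ± 0.20 and Prelp at -0.04 ± 0.13. The basic helix-loop-helix partners and inhibitors of Twist1 had a median of -0.13 with 3 of 8 positive, the bHLH gene Scx at 0.38 ± 0.37 and the inhibitor gene Id2 at -0.37 ± 0.14. The PDGF list had 3 of 4 positive, with Pdgfra at 0.42 ± 0.22 and Pdgfa at -0.20 ± 0.15, and the R4 family of RGS genes 4 of 5, with Rgs4 at 0.28 ± 0.11 and Rgs16 at -0.04 ± 0.12.

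Markers of other tissues varied on the same arrays. Of the surface epithelium markers, Krt8, Krt14, Krt15, Cdh1, Trp63 and Cldn6 were detected on 16 of 16 E12.5 arrays, Krt5 on 12, Krt18 on 9 and Krt19 on 0. Of the measured markers 8 of 8 were positive in homozygotes against wild types with a median of 0.16, and their summed linear signal ran from 817 to 1480 in homozygotes, 792 to 1740 in heterozygotes and 711 to 2100 in wild types. The cartilage collagen gene Col2a1 was also detected on 16 of 16, and the cartilage, bone and muscle markers summed to 1760 to 3090, 1580 to 2360 and 1430 to 2820 in homozygotes, heterozygotes and wild types, with 2 of 7 positive; Myod1, Myf5 and Ibsp were detected on 0 arrays. Endothelial markers had 7 of 12 positive with a median of 0.08. Choroid plexus markers had 1 of 7 positive with a median of -0.23, and macrophage markers 2 of 9 with a median of -0.14. Neural crest markers had 3 of 4 positive, red cell markers 4 of 6, oligodendrocyte lineage markers 4 of 7, forebrain markers 3 of 6 and adult brain cell markers 1 of 4. The part of these markers in the members' values was not tested.

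**Figure D2:**
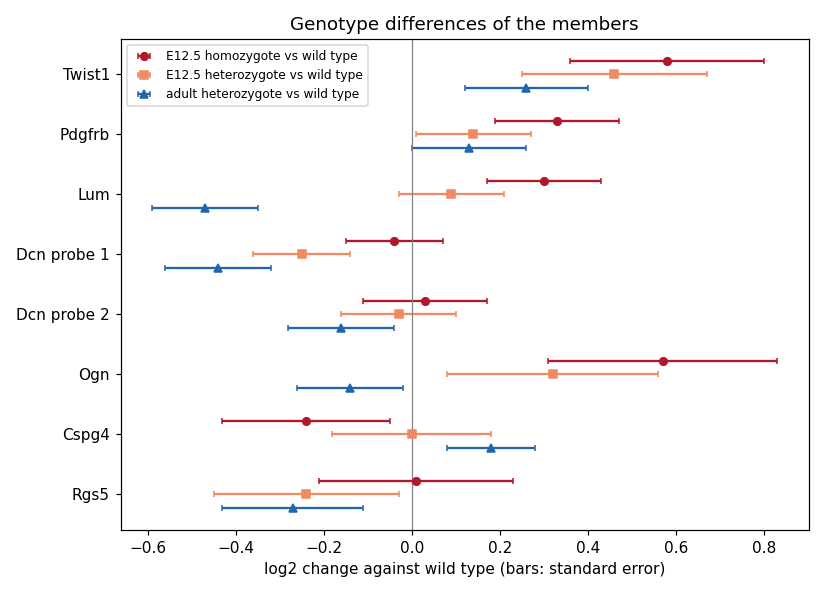
Log2 change against wild type of the 8 member probes kept, for E12.5 homozygotes, E12.5 heterozygotes and adult heterozygotes, with bars of 1 standard error. Twist1 stands at 0.58 and 0.46 in E12.5 homozygotes and heterozygotes, and Lum at 0.30 in E12.5 homozygotes and -0.47 in adult heterozygotes.

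Litter, read from the embryo numbers, was the factor by which the members differed most often at E12.5. The test of litter, with genotype and sex in the same fit, called 5 of the 8 member probes, those of Pdgfrb, Lum, Dcn (both) and Rgs5, while 34% of all probes were called. Twist1, Ogn and Cspg4 were not called. By gene, at the brightest probe of each, this is 4 of 7.

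Pdgfrb was lowest in litter 509, where it read 5.81, 6.04 and 6.29. It ran from 6.26 to 6.91 in litter 542, from 6.84 to 7.07 in litter 549 and from 6.55 to 7.22 in litter 551. Litter 509 overlapped only litter 542, by 1 array of each, and the fitted litter means lay between 6.01 (509) and 6.93 (551; F = 14.0, limma adjusted p = 0.00168). The other 3 litters overlap each other.

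Rgs5 had the reverse order. It read 6.08, 6.30 and 6.30 in litter 509, 5.03 to 6.15 in litter 542, 4.61 to 5.75 in litter 549 and 4.47 to 4.84 in litter 551. It was detected in 3 of 3, 2 of 5, 2 of 4 and 0 of 4 embryos of these litters. Litter 509 was at least 1.90-fold higher than litter 551, where the probe was not well above background (the bound sets the mean of the bright litter against the lowest detected signal of each dim array), and the litter test gave F = 13.7 (limma adjusted p = 0.00181). The pericyte receptor gene Pdgfrb and the pericyte gene Rgs5 were thus lowest and highest in the same litter.

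Lum was highest in 1 litter. It read 11.54 to 12.04 in litter 551, against 11.12 to 11.54 in litter 509, 11.16 to 11.62 in litter 542 and 11.06 to 11.53 in litter 549, with fitted means of 11.83, 11.34, 11.42 and 11.22 (F = 6.79, limma adjusted p = 0.0189). Litter 551 overlapped litters 509 and 542 only at its lowest arrays. The call was lost without homozygous male replicate 2, an embryo of litter 551 (adjusted p = 0.0567).

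Both Dcn probes were lowest in litter 542. On ILMN_2747959 this litter read 9.36 to 9.74, litter 549 read 9.53 to 10.10, litter 551 read 10.03 to 10.38 and litter 509 read 10.36, 10.68 and 10.68 (F = 14.0, limma adjusted p = 0.00169). On ILMN_2596346 it read 7.29 to 7.92, litter 549 read 7.70 to 8.04, litter 509 read 7.93 to 8.22 and litter 551 read 8.21 to 8.48 (F = 17.7, adjusted p = 0.000755). The probes share the lowest litter and place litters 509 and 551 in opposite order at the top. Their difference (ILMN_2747959 minus ILMN_2596346) ran from 1.56 to 2.75 over the 16 embryos.

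Twist1 had fitted litter means from 8.94 (509) to 9.55 (551) at an adjusted p of 0.162 by limma, Ogn from 8.71 (542) to 9.42 (551) at 0.146, and Cspg4 from 6.31 (509) to 6.72 (549) at 0.273. Twist1 was called without heterozygous female replicate 2, an embryo of litter 509 (adjusted p = 0.0406). The ranges of the litters overlapped for Twist1, as they did for Ogn, which read 8.28 to 9.54 in litter 549 and 9.18 to 9.68 in litter 551.

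**Figure D3:**
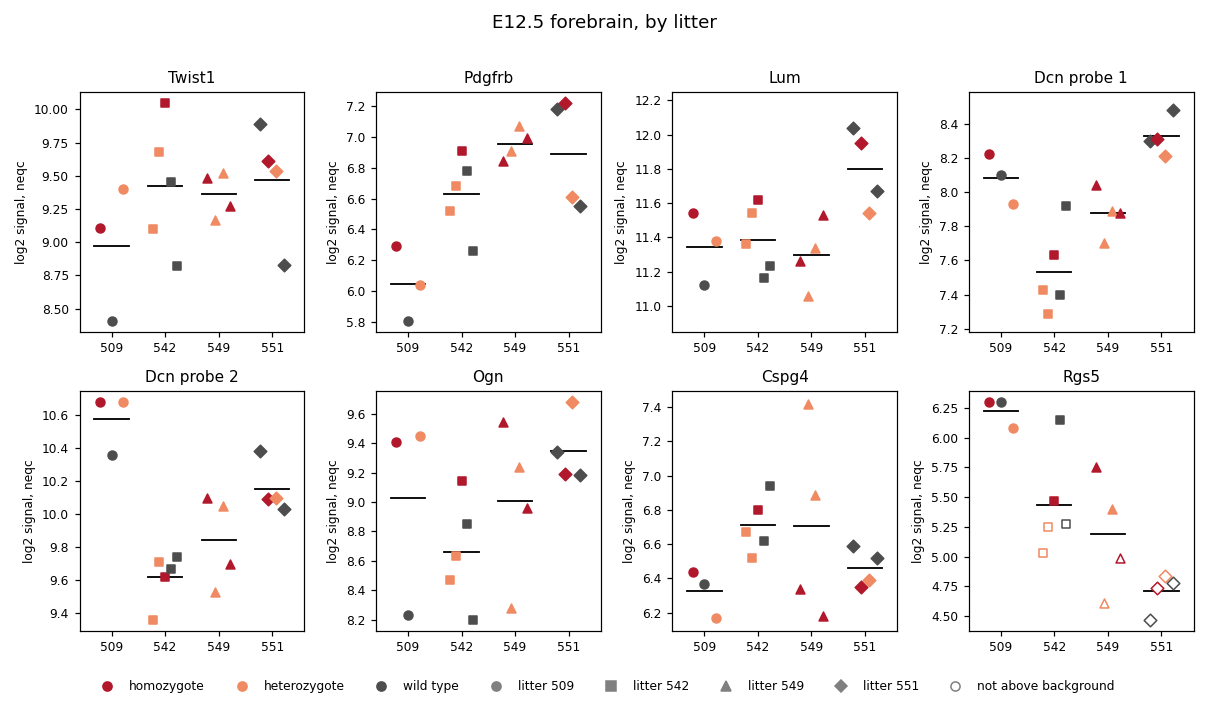
Log2 signal of the same probes by litter; each point is an embryo, colour gives the genotype, an open point was not above background and the bar is the litter mean. Pdgfrb is lowest and Rgs5 highest in litter 509, both Dcn probes are lowest in litter 542, and Lum is highest in litter 551.

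Genes of the members' families were also called between litters, to be read against the 34% of all probes that were. Of the meningeal and mesenchymal factors 6 of 23 were called, a smaller share than over all probes, among them Slc6a13 (fitted mean 6.76 in litter 509 and 5.66 to 5.82 in the other litters, adjusted p = 0.00136) and the meningeal forkhead gene Foxc1 (8.64, 9.12, 8.48 and 8.27 in litters 509, 542, 549 and 551, adjusted p = 0.007). Prelp, a proteoglycan gene of the same family as Lum, was at 7.69 in litter 509, against 6.88 to 7.20 elsewhere (adjusted p = 0.00193 by limma). The fibrillar collagen genes Col3a1 and Col5a2 were called, Col3a1 with fitted means of 7.15, 7.61, 7.90 and 8.53 in litters 509, 542, 549 and 551 (adjusted p = 0.00265). Thbs1 ranged from 5.11 in litter 551 to 7.11 in litter 542 (adjusted p = 5.25e-05). Of the mural cell genes 3 of 13 were called, again a smaller share, Notch3, Mcam and Tagln. Calls in the other lists were 1 of 4 in the PDGF list (Pdgfb), 2 of 8 among the Twist1 partners and inhibitors, 2 of 5 among the R4 RGS genes, 1 of 7 among TGF-beta ligands and receptors, 2 of 12 endothelial, 2 of 7 choroid plexus, 3 of 6 forebrain, 2 of 9 macrophage, 1 of 4 neural crest, 1 of 7 oligodendrocyte lineage, 2 of 4 adult brain cell and 1 of 8 surface epithelium markers. Red cell and cartilage, bone and muscle markers had 0 called, with 2 and 0 genes at an unadjusted limma p below 0.05. Summed surface epithelium signal was 837 to 1740 in litter 509, 711 to 1540 in litter 542, 792 to 1670 in litter 549 and 968 to 2100 in litter 551. No label says what the first part of an embryo's number stands for, so what else differed between these litters was not tested.

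After genotype, sex and litter were taken out, some members still varied together over the 16 embryos. Pearson's r of the fit residuals was 0.79 for Dcn (ILMN_2747959) and Ogn, 0.72 for Twist1 and Pdgfrb, 0.68 for Twist1 and Ogn, and 0.68 for Pdgfrb and Lum. The other pairs without Cspg4 ran from 0.17 (Lum and Ogn) to 0.60 (Twist1 and Dcn). With litter and genotype left in, r for Twist1 and Dcn was -0.09. Cspg4 stood apart, with r between -0.35 and 0.10 against the other 5 genes detected on at least 8 arrays. Over pairs of 1434 probes sampled evenly from those kept, the median was 0 and the quartiles -0.29 and 0.29, with 9 residual degrees of freedom. The Dcn probes had a residual r of 0.41 with each other, lower than that of 1 of them with Ogn. These values are a description over arrays that the pairs share.

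The genes most like each member in these residuals were named by a fixed rule. Each r below is among the highest over all genes searched, with 9 residual degrees of freedom. It cannot be set against the quartiles of pairs above. How high such a maximum runs for any other probe was not tested. Twist1 was nearest to the epithelial keratin gene Krt8 (r = 0.96, n = 16 arrays), then Ppic and Galnt10. Ogn was nearest to Tfap2b, a neural crest transcription factor gene (r = 0.97), then Arsb and Aplp2. Dcn was nearest to Mtmr11 (0.90), Nfkbiz and Ypel3, Pdgfrb to Cend1 (0.90), D430042O09Rik and 6330403K07Rik, Lum to Sh2b2 (0.94), Cct3 and Slc4a8, and Cspg4 to Snrnp25 (0.94), Ly6e and Mrpl18. On the levels themselves, with litter and genotype left in, r was 0.85 for Twist1 and Krt8, 0.64 for Ogn and Tfap2b, 0.12 for Lum and Sh2b2 and -0.11 for Dcn and Mtmr11.

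Lum and Dcn lie next to each other on chromosome 10, followed by the proteoglycan genes Kera and Epyc, and Ogn lies beside Ecm2, Aspn and Omd on chromosome 13 in the RefSeq annotation of GRCm38.p6. Kera, Epyc, Ecm2, Aspn and Omd were on the array and none passed the filter on dim probes. Although they are neighbours, Lum and Dcn (ILMN_2747959) had a residual r of 0.38 and differed in their lowest litter. Rgs5 lies beside Rgs4, another GTPase-activating protein gene, on chromosome 1, and the litter test left Rgs4 uncalled at an adjusted p of 0.0858 by limma.

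The adult comparison asks what a single changed allele does in the brain of grown males, in animals that are not those of the embryonic comparisons. Of the 8 member probes 0 were called, where 0% of all 14266 probes were. At an unadjusted limma p below 0.05, 2 member probes passed, and 10.6% of all probes did. Lum and 1 of the Dcn probes had the largest differences, both lower in heterozygotes. Lum read 5.52, 5.26, 5.18 and 5.25 in heterozygotes, against 5.80, 5.93 and 5.60 in wild types. All heterozygotes lay below all wild types, and the difference was -0.47 ± 0.12 (SE, 4 against 3; unadjusted p = 0.00167, adjusted p = 0.366 by limma). It was -0.15 without background correction and -0.74 in the deposited processed table. Lum was detected on 7 of 7 adult arrays, but its raw signal there, 123 to 173, lay near the array medians of 119 to 143.

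Dcn on ILMN_2596346 read 6.91, 6.76, 6.54 and 6.84 in adult heterozygotes, against 7.38, 7.25 and 6.99 in wild types, again with no overlap and a difference of -0.44 ± 0.12 (adjusted p = 0.366 by limma). On ILMN_2747959 it read 8.87, 8.71, 9.03 and 8.88, against 9.18, 9.12 and 8.81, which overlap, with a difference of -0.16 ± 0.12. The probes thus share the sign and not the size. Heterozygotes lay wholly below wild types at 5.02% of all probes kept and at 2 of the 8 member probes.

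Ogn, also a proteoglycan gene, read 6.57, 6.93, 7.04 and 6.78 in heterozygotes, against 7.09, 6.93 and 6.88 in wild types, a difference of -0.14 ± 0.12. Rgs5 read 5.81, 6.19, 5.53 and 6.06, against 5.90, 6.36 and 6.24 (-0.27 ± 0.16). The groups of both genes overlapped. Pdgfrb and Cspg4 were on the other side, at 0.13 ± 0.13 and 0.18 ± 0.10. Twist1 was detected in 3 of 4 heterozygotes and 0 of 3 wild types, at 4.58, 5.24, 4.88 and 4.89, against 4.52, 4.60 and 4.78. Its groups overlapped and it was not called (unadjusted p = 0.0903, adjusted p = 0.509 by limma). Since no wild type was detected, the ratio of the heterozygote mean to theirs is only bounded, at 1.07-fold or more. This bound carries no error, so no rise is read from it.

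**Figure D4:**
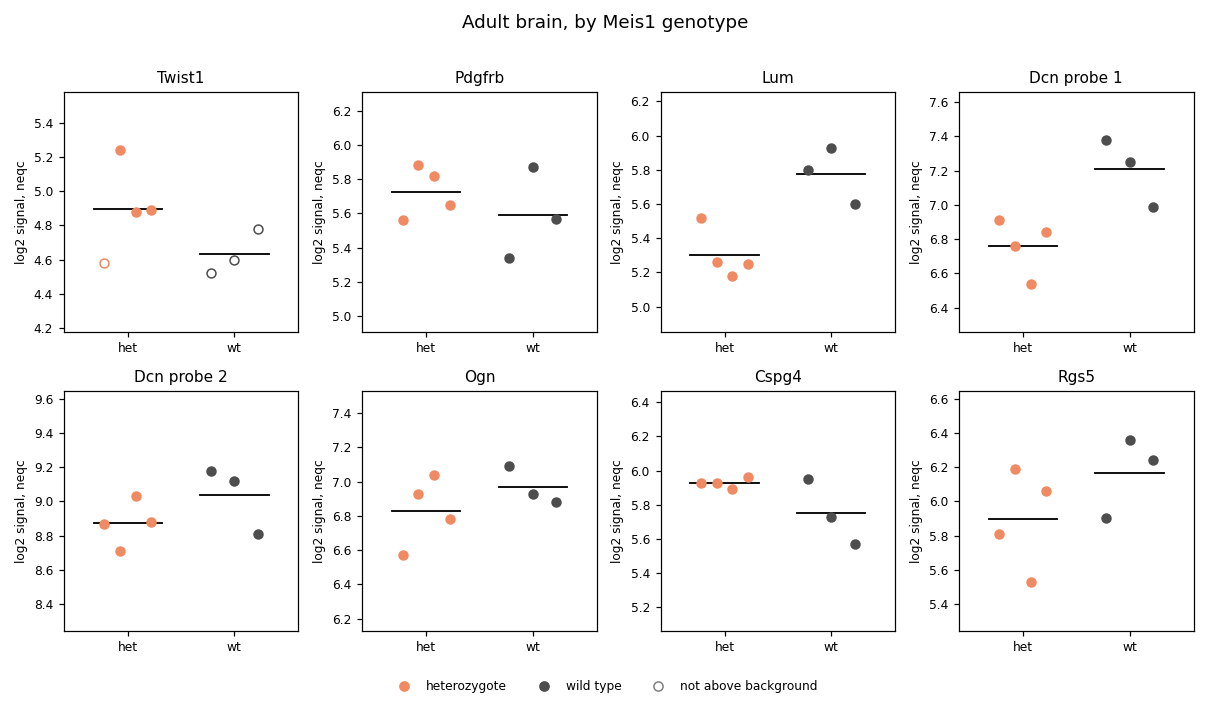
Log2 signal of the 8 member probes kept in adult whole brain of heterozygotes and wild types; each point is a mouse, an open point was not above background and the bar is the group mean. Lum and Dcn probe 1 (ILMN_2596346) have all 4 heterozygotes below all 3 wild types, and the other panels overlap.

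The families gave 0 calls in the adult comparison as well. Among the members' families the largest changes included the zinc finger gene Zic1 at -0.56 ± 0.20 and the homeobox gene Alx4 at 0.41 ± 0.12. Pdgfra stood at -0.35 ± 0.11 and the matricellular gene Sparcl1 at -0.42 ± 0.16. Alx4 was detected on only 3 of 7 adult arrays, so its change lies near background. The meningeal and mesenchymal factors had 7 of 19 positive with a median of -0.03, the mural cell genes 10 of 13 with 0.04, the collagens 4 of 5 with 0.16, and all probes 51.3% with 0.01. Choroid plexus markers had 1 of 8 positive and a median of -0.15, from Folr1 at -0.51 ± 0.18 to Aqp1 at 0.41 ± 0.10, and their summed signal ran from 7310 to 9740 in heterozygotes and 9060 to 9600 in wild types. Meningeal and mesenchymal factors summed to 5200 to 5660 in heterozygotes and 5680 to 5900 in wild types. This linear sum is weighted to the brightest genes, while the median log2 change over the 19 genes was -0.03. The part of these lists in the values of Lum and Dcn was not tested. The adult heterozygote effect minus the E12.5 heterozygote effect gave 0 called members, with 0% of all probes called; it was -0.53 ± 0.25 for Lum (adjusted p = 1 by limma, and -0.14 without background correction) and lay between -0.35 and 0.15 for the other probes.

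Adult and embryonic wild types were set on 1 scale by normalizing all 23 arrays together, and here the members parted. Lum and Twist1 were much lower in adult brain, Rgs5 was higher, and Dcn, Pdgfrb and Cspg4 were not called. Of the 8 member probes 4 were called, against 68.4% of all 16352 probes, so a call is the usual state in this comparison and the sizes carry the description. Over all probes the median change was -0.12. The stage, the tissue (whole brain against forebrain) and the array set are the same division and cannot be told apart. The joint fit, also used for the difference of heterozygote effects, holds no litter term. Its E12.5 wild types came from litters 509, 542 and 551 and were treated as independent.

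Lum read 6.41, 6.58 and 6.15 in adult wild types, against 11.77, 10.89, 10.85, 11.40 and 10.96 in E12.5 wild types. No array came near the other stage, and the difference was -4.77 ± 0.20 on the log2 scale (SE, 3 against 5, sex in the fit; limma adjusted p = 7.97e-16). Twist1 read 4.72, 4.83 and 5.07 in adults, where it was not well above background, against 9.62, 9.18, 8.15, 8.57 and 8.56 at E12.5. E12.5 wild types were at least 13.2-fold higher (adjusted p = 7.50e-12 by limma).

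Rgs5 read 6.55, 7.09 and 6.95 in adult wild types, against 4.41, 5.97, 6.11, 4.71 and 5.16 at E12.5. All adults lay above all embryos, with a difference of 1.51 ± 0.37 (limma adjusted p = 0.00107), and 3 of the 5 embryos were not above background. Ogn read 7.92, 7.74 and 7.68, against 9.07, 8.59, 7.97, 8.91 and 7.95, a difference of -0.70 ± 0.29 (adjusted p = 0.0389). The lowest embryo stood only just above the highest adult, and the call of Ogn was lost in 9 of the 29 alternatives run, with adjusted p up to 0.131 without E12.5 wild type male replicate 1.

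Dcn, in the same proteoglycan family as Lum, read 10.13, 10.08 and 9.77 on ILMN_2747959 in adults, against 10.10, 9.39, 10.09, 9.76 and 9.47 at E12.5, a difference of 0.17 ± 0.26 with a 95% interval from -0.37 to 0.70. On ILMN_2596346 the difference was 0.26 ± 0.22. Pdgfrb and Cspg4 differed by -0.24 ± 0.25 and -0.09 ± 0.20, and both turned positive, at 0.17 and 0.28, with each array scaled to its median in place of quantile normalization, which also moved the median of all probes to 0.26. Under that scaling 59.7% of the called probes were higher in the adult, against 45.9% as reported. Without background correction Twist1 stood at -1.98 and Rgs5 at 0.57, both still called.

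**Figure D5:**
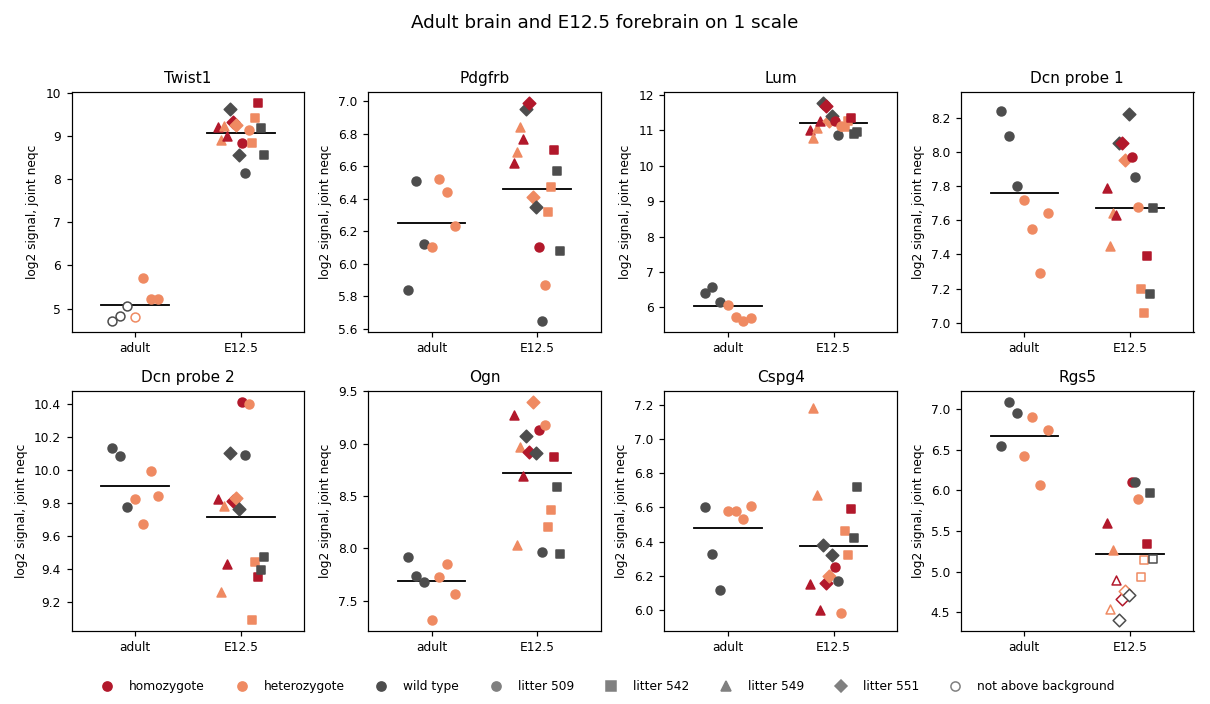
Log2 signal of the 8 member probes kept after all 23 arrays were normalized together, adult whole brain beside E12.5 forebrain; each point is an animal, colour gives the genotype, an open point was not above background and the bar is the mean over genotypes. Lum spans 5.63 to 6.58 in adults and 10.78 to 11.77 in embryos, while Cspg4 spans 6.12 to 6.61 and 5.98 to 7.18.

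The families are set here beside all probes of the same comparison, of which 5131 rose and 6052 fell of 16352. A list with counts near these shares shows nothing particular to it. Of the meningeal and mesenchymal factors 16 of 23 fell and 3 rose in adults against embryos, with the retinoid-binding protein gene Crabp2 at -3.93 ± 0.23, the Twist1 paralogue Twist2 at -3.33 ± 0.24 and the homeobox gene Msx1 at -2.91 ± 0.21, while the matrix gene Mgp rose by 2.95 ± 0.46 and Slc6a13 by 2.55 ± 0.28. Of the collagen genes 6 of 7 fell, Col1a1 at -3.88 ± 0.26. Of the mural cell genes 7 fell and 5 rose of 16, near the shares over all probes. Notch3 stood at -2.36 ± 0.21 and Gja4, a gap junction gene, at -1.96 ± 0.17, beside Rgs4 at 4.16 ± 0.15. Itga7 at 2.48 ± 0.11 and Higd1b at 1.81 ± 0.12 were detected on 0 of 16 E12.5 arrays and 7 of 7 adult arrays. The size of their rise is therefore not measured, since the embryos lay at background. Of the small leucine-rich proteoglycan genes beside the members 3 rose and 2 fell of 5, Prelp at 2.92 ± 0.23 and Bgn, encoding biglycan, at -1.97 ± 0.14. Of the Twist1 partners and inhibitors 5 fell and 1 rose of 8, led by the E protein gene Tcf12 at -1.88 ± 0.21. Of the R4 RGS genes 3 rose and 2 fell of 5, and of the PDGF list 2 rose (Pdgfa and Pdgfb) and 1 fell (Pdgfc) of 4. Of the matricellular genes 3 rose and 5 fell of 10. On the same arrays 7 of 8 surface epithelium markers and 5 of 6 forebrain markers fell, and 7 of 7 adult brain cell markers rose, each by the adjusted limma p. Summed surface epithelium signal was 95.0 to 122 in adult heterozygotes and 102 to 119 in adult wild types over 3 markers, and the part of tissue content in the stage differences was not tested.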

How the data were processed

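Probe signals and detection p-values of 23 arrays were deposited as read by the authors with GenomeStudio 2011.1, per the submitters' processing notes. The deposited signal is a linear intensity per probe, with every value above 0, and the deposited p-value is named a detection p per the file headers. A second deposited table of intensity values, background-subtracted and scaled within each stage as its values show, by a method not given in the sources used here, served as an alternative. From the raw table, neqc in limma 3.58.1 (R 4.3.3) corrected background by normexp from the detection p-values (offset 16), quantile normalized and took log2, separately for the 16 E12.5 and 7 adult arrays and jointly for the stage comparison. Probes detected (p below 0.05) on at least 5 E12.5, 3 adult or 3 joint arrays were kept (14340, 14266 and 16352). lmFit and eBayes fitted genotype, sex and litter at E12.5, genotype in adults, and stage-by-genotype groups with sex jointly. Adjustment was Benjamini-Hochberg over all kept probes. Nothing in the labels says how animals relate beyond their numbers.

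The members and lists were chosen with earlier results of these data known. Named were every member probe and the 3 genes with the highest residual correlation. Where a list had none called, the genes named for their change were the highest, the lowest or both. Of the called genes between litters and between stages only some were named, not always the largest, so they do not stand for their lists. Some genes given for their family were added after their values were seen. A gene with several probes is given at its brightest. Probe names came from the platform annotation, in which 23978 probes had 1 symbol and 1719 none. Where a group was wholly below background for a member, its fold is a bound. The fits were tested on simulated data. Alternatives were other background correction, scaling, filters, litter terms, weights, males alone, replicate numbers and each array left out. No header gives a slide, so no slide term was fitted.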

Additional observations from a re-analysis of the deposited data

Results flagged for a closer look

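Of 44 sets (each of the 11 member probes in each group of 4 to 6 arrays) tested for a sample far from the others, 1 held such a sample, where chance gives about 1 in 20. It was the Ogn probe ILMN_2740622 in E12.5 heterozygotes, where female replicate 1, of litter 551, read 5.23 and the next array 4.70, a gap of 0.76 of the group's range. The probe was not detected on this array or on any other, and the detected Ogn probe ILMN_2859613 was also highest in this embryo among heterozygotes, at 9.68.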

How the results depend on the processing

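Under every alternative run, 0 member probes were called in the genotype comparisons, in adult heterozygotes against wild types, between the sexes and in the difference between the adult and E12.5 heterozygote effects. Between litters 4 to 6 were called with each array left out and 4 to 6 under the other settings, and between stages 3 to 4 in both. The median log2 change of the member probes between stages turned to 0.15 with median scaling in place of quantile, from -0.17 as reported, and lay between -0.33 and -0.09 with each array left out. The median of the member probes in homozygotes against wild types was 0.16, 0.12 to 0.23 with each array left out and 0.06 to 0.36 under the other settings (0.08 without background correction). Ogn between stages was no longer called without background correction (-0.50, adjusted p = 0.0559), with median scaling (-0.58, 0.0877), without the filter (-0.70, 0.0679), and without any 1 of 6 wild type arrays (adjusted p from 0.0529 to 0.131), all by limma; 3 E12.5 wild types (male replicates 1 and 3 and female replicate 1) and all 3 adult wild types were among these. Ogn was called between litters with array weights (adjusted p = 0.0375). Adult Lum stood at -0.15 without background correction and -0.74 in the deposited processed table, and adult Dcn (ILMN_2596346) at -0.25 without background correction. Counts over all probes moved by over 1.5 times in homozygotes against wild types (7 as reported, 1 with probes detected on all arrays, 2 with males alone, 3 without background correction), in homozygotes against heterozygotes (10, and 2 without litter 549), between the sexes (10, and 5 to 6 in 7 settings) and in the difference of heterozygote effects (0, and up to 5).

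The replicate numbers of the titles do not pair the arrays: over 36 same-numbered pairs of E12.5 arrays the correlation of deviations ran from -0.54 to 0.74 with a mean of 0.16, against a mean of 0.38 for pairs of the same litter, and over 3 adult pairs from -0.14 to 0.11. With the replicate number as a block in place of litter, 0 members were called in homozygotes against wild types and 5 probes in all, and the members' median change was 0.10. The fit with neither term gave the same 3 values. The block changed no member's call in the genotype comparisons, in adults, between stages or in the difference of heterozygote effects, and was not run for litters or sexes. Signal over background limits Rgs5 at E12.5, Twist1 in adults, Postn and the other two Ogn probes. Adult Lum, Pdgfrb, Cspg4 and Rgs5 were detected on 7 of 7 arrays, but at raw signals of only 123 to 189, near the array medians of 119 to 143.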
